A study of Homo sapiens with 21 samples.

Results

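The enzymes that build purine nucleotides from small precursors were followed through the RNA-seq libraries of H1975, an established line of human lung adenocarcinoma whose EGFR carries activating and resistance mutations. The members were the 9 genes PPAT, GART, PFAS, PAICS, ADSL, ATIC, IMPDH1, IMPDH2 and GMPS, chosen by symbol out of 34021 genes in the deposited table. All 9 were found in it, and all 9 reached the minimum for testing of 1 FPKM in at least 3 libraries. FPKM is a fragment count divided by gene length and by library size, so levels can be compared between genes. The file does not name its unit, and FPKM is read here from the values. The 9 libraries fell into 3 groups of 3, all harvested on day 8 according to the treatment labels. DMSO_EV (labelled DMSO+EV) received the solvent and carried EV, which the labels leave unexplained. Osi_Lin_EV (OL+EV) received osimertinib at 500 nM, which blocks mutant EGFR covalently, together with linsitinib at 500 nM, which blocks the IGF1 and insulin receptor kinases, and EV. Osi_cIGF1R (OC) received 500 nM osimertinib and overexpressed cIGF1R, a circular RNA of the IGF1R gene. Osimertinib was thus in both treated groups, which differ in linsitinib and in the circular RNA at once. The label OC does not name EV, so Osi_cIGF1R also differs from both other groups in this part of the label. No sample of the series is labelled as osimertinib with EV only. A protocol attached to all samples of the series names RNase R, which digests linear RNA, and whether it was applied to these libraries is not settled by the labels.

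Purine rings are assembled stepwise on a ribose phosphate called PRPP. PPAT, the amidophosphoribosyltransferase, commits PRPP to the pathway, and GART, PFAS, PAICS, ADSL and ATIC carry the intermediate on to inosine monophosphate (IMP). GART and ATIC use folate-bound formyl groups, PPAT and PFAS take nitrogen from glutamine, and PAICS takes it from aspartate. IMP is then turned into GMP by IMP dehydrogenase, made from either IMPDH1 or IMPDH2, and by GMPS, the GMP synthetase. In the AMP branch ADSL acts a second time, after adenylosuccinate synthetase (ADSS1 or ADSS2). Growing and dividing cells draw on this pathway for DNA, RNA and energy carriers, and the growth-promoting transcription factor MYC is a known activator of several of its genes.

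PPAT and PAICS lie head to head on chromosome 4 (GRCh38.p14, RefSeq), PPAT from 56393362 to 56435615 and PAICS from 56410507 to 56464578. A PAICS start at 56435752 faces the PPAT start at 56435615, and 136 bases separate them. Since the first enzyme of the pathway and the enzyme with the deepest fall share this stretch, it is shown here on the plus strand, at chr4:56435616-56435751, with matches to GGGCGG (the SP1 box) in capitals.

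PPAT-PAICS stretch: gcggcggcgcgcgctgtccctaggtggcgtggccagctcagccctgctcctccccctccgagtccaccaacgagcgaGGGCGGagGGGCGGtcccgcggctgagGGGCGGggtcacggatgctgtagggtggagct

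The stretch held 3 SP1 boxes and had a G and C content of 75%. An E-box, CACGTG, to which MYC and MAX bind, lay just outside it, 40 bases after the PAICS start and 182 bases before the PPAT start. It is printed with its flanks, at chr4:56435782-56435801, followed by the 60 bases before the ATIC start at chr2:215311999-215312058. ATIC is shown because it was the most abundant of the enzymes and also carried an E-box. Capitals mark CACGTG and, in ATIC, also the SP1 box on the minus strand. The ATIC E-box lies 46 bases before the start, and a further one lies 29 bases after it.

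PAICS E-box: gtatttgctgCACGTGgaaa

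ATIC upstream: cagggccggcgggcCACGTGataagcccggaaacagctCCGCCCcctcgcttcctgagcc

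RefSeq windows of 250 bases before to 50 after a start were at hand for 7 of the 9 genes, in 11 windows. Over both strands CACGTG occurred in 3 of these 11 windows, 1 each of PPAT, PAICS and ATIC, and in 7.26% of all 35116 windows. The PPAT and PAICS matches are the same 6 bases. TGCGCA, a part of the motif of the respiratory factor NRF1, occurred in 1 member window (ATIC) and in 8.24% of all windows. CCAAT occurred in 3 windows, all of GART, and in 34.6% of all, and GGGCGG in 8 of the 11 and in 45% of all. CACGTG and GGGCGG do not overlap in the sequences shown. These are matches of letters in windows that partly cover each other, and binding was not measured.

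The libraries had summed FPKM of 429553 to 474156 in DMSO_EV, 423319 to 432563 in Osi_Lin_EV and 338034 to 381311 in Osi_cIGF1R. Transcripts of mitochondrial DNA took 20.3% to 30.4%, 20.4% to 25.6% and 6.08% to 7.28% of these sums, so the scaling between groups bears on every fold change, and its part in each was not tested beyond the other scalings given below. Epithelial markers (EPCAM, CDH1, KRT7, KRT8, KRT18 and KRT19) summed to between 11200 and 15200 FPKM in every library. Alveolar markers summed to 2.23 FPKM or less, with NKX2-1 at 0.169 or less, SFTPC at 0 in DMSO_EV and SFTPB at 0 in Osi_cIGF1R, so the lung identity in the label is not visible in its defining markers. Sums were at most 1.6 FPKM for leukocyte, 4.08 for endothelial and 6.1 for fibroblast markers. DMSO_EV replicate 2 and Osi_cIGF1R replicate 1 stood apart within their groups in small noncoding RNAs. RN7SL1 was at 443 and 53.2 FPKM in them, against 46.4 or less and 6.37 or less in the other libraries of these groups. In Osi_Lin_EV RN7SL1 stood at 25.8, 16.7 and 52.9 FPKM, so replicate 3 was about as high as Osi_cIGF1R replicate 1. Without DMSO_EV replicate 2 and Osi_cIGF1R replicate 1 the same numbers of purine enzymes were called. In bulk RNA, fewer cells of a kind and less RNA per cell cannot be told apart.

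In DMSO_EV the 9 enzymes spanned a wide range of levels. ATIC stood highest, at 83.6, 96.1 and 95.5 FPKM in replicates 1 to 3, and PPAT lowest, at 2.63, 2.66 and 2.92 FPKM. Between them the order was IMPDH2, IMPDH1, PAICS, GART, GMPS, ADSL and PFAS, and of all neighbours in this order only PAICS (16.4 to 19.9 FPKM) and GART (13.6 to 19.3 FPKM) overlapped. The order was different in the treated cells. In Osi_Lin_EV it ran ATIC, IMPDH1, IMPDH2, GART, GMPS, ADSL, PAICS, PFAS and PPAT, with an overlap only between GART and GMPS. In Osi_cIGF1R it was the same except that PFAS and PAICS changed places and overlapped, at 1.25 to 1.79 and 1.23 to 1.44 FPKM. The 9 together summed to 242 ± 18.1 FPKM (SD, n = 3) in DMSO_EV, to 153 ± 9.89 in Osi_Lin_EV and to 87 ± 4.39 in Osi_cIGF1R. As TPM, that is with every library rescaled to the same total, it ran from 465 to 588, from 328 to 375 and from 239 to 256, so the 3 groups did not overlap on that scale either.

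**Figure D1:**
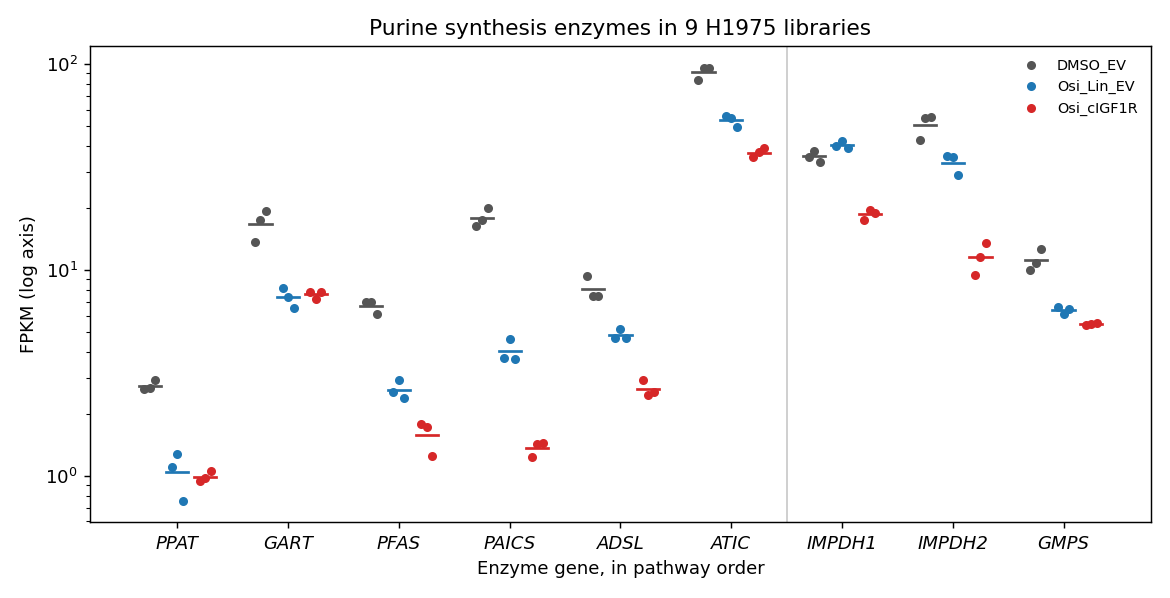
FPKM of the 9 purine enzyme genes on a log axis, with a point for each library, a bar for the mean of the group and a grey line between the shared pathway and the GMP branch. PAICS drops furthest, from 16.4 to 19.9 in DMSO_EV to 1.23 to 1.44 in Osi_cIGF1R, while IMPDH1 in Osi_Lin_EV lies between 39 and 42.3, above DMSO_EV.

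Cells in osimertinib and linsitinib held less mRNA of 8 of the 9 enzymes than solvent-treated cells, and IMPDH1 did not pass the test. Levels in Osi_Lin_EV lay between 22.4% (PAICS) and 65.4% (IMPDH2) of those in DMSO_EV for the 8 that fell. The test was limma on log2(FPKM + 1) over all 13775 genes that reached the minimum, called at a Benjamini-Hochberg adjusted p under 0.05. Of all genes tested 23.5% were called lower and 29% higher in this comparison, and 5.54% were lower by at least 1 on the log2 scale, which 3 of the 9 enzymes reached. The enzymes had a median log2 fold change of -0.77, beside 0.05 for all genes tested. The libraries of a group are not described as separate cultures, so the spread behind these p-values may be technical.

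PAICS, a bifunctional enzyme of the middle of the pathway, fell most. It stood at 16.4, 17.5 and 19.9 FPKM in DMSO_EV and at 3.74, 4.6 and 3.71 FPKM in Osi_Lin_EV. Every treated library was below every control library, and the log2 fold change was -1.92 (SE 0.11, limma adjusted p = 7.99e-09), at rank 211 from the lowest of 13775 genes. GART, which carries out 3 steps on the way to IMP in a single protein, stood at 13.6, 17.5 and 19.3 FPKM in DMSO_EV and at 8.15, 7.42 and 6.56 FPKM in Osi_Lin_EV. Its log2 fold change was -1.08 (SE 0.12). PFAS, which adds a nitrogen from glutamine, stood at 6.99, 6.98 and 6.13 FPKM in DMSO_EV and at 2.56, 2.91 and 2.4 FPKM in Osi_Lin_EV, a log2 fold change of -1.09 (SE 0.11). PPAT fell to 1.1, 1.27 and 0.758 FPKM, a log2 fold change of -0.88 (SE 0.11). Its levels lie near the pseudocount of 1, and with pseudocounts of 0.1 and 5 the value was -1.33 and -0.36. With a pseudocount of 5 PFAS had -0.62 and ADSL -0.41.

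The last enzymes of the shared pathway fell less. ADSL, the lyase that serves both IMP and AMP synthesis, stood at 9.37, 7.43 and 7.45 FPKM in DMSO_EV and at 4.66, 5.15 and 4.68 in Osi_Lin_EV, a log2 fold change of -0.63 (SE 0.11, limma adjusted p = 0.00022). ATIC, which closes the ring to IMP, went to 56.2, 54.5 and 49.7 FPKM, a log2 fold change of -0.77 (SE 0.09). For neither gene did the groups overlap. In all, 8 enzymes had every Osi_Lin_EV library below every DMSO_EV library, as did 27.6% of genes tested. In the GMP branch GMPS moved from 10, 10.8 and 12.7 FPKM in DMSO_EV to 6.64, 6.09 and 6.44 FPKM in Osi_Lin_EV, a log2 fold change of -0.71 (SE 0.1). IMPDH2, the isoform linked to proliferating cells, went from 42.9, 54.5 and 55 FPKM to 35.6, 35.3 and 28.8 FPKM, a log2 fold change of -0.59 (SE 0.14, limma adjusted p = 0.00245). IMPDH1, the isoform usually regarded as constitutive, stood at 35.2, 37.9 and 33.6 FPKM in DMSO_EV and at 40.2, 42.3 and 39 FPKM in Osi_Lin_EV. All treated libraries were above the controls, as for 34.3% of genes tested, yet the difference missed the threshold, with a log2 fold change of 0.18 (95% interval -0.01 to 0.37, limma adjusted p = 0.0987). It passed with equal totals without mitochondrial genes, at 0.21 (limma adjusted p = 0.0441).

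In Osi_cIGF1R all 9 enzymes were lower than in DMSO_EV, where 35.8% of all genes tested were called lower and 33.1% higher. Scaled to equal totals, which let 16408 genes past the minimum, 66.3% of all calls in this comparison were higher ones, against 48% as measured. All 9 enzymes were still called lower. Levels ran from 7.62% (PAICS) to 52.4% (IMPDH1) of DMSO_EV. A fall of at least 1 on the log2 scale was found for 6 enzymes and for 11.4% of genes tested. The median log2 fold change of the enzymes was -1.28, beside -0.03 for all genes. Both treated groups are set against the same 3 DMSO_EV libraries, so these falls and those in Osi_Lin_EV are not independent of each other.

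PAICS again fell most, to 1.23, 1.43 and 1.44 FPKM, which is 13.1-fold below the DMSO_EV mean. Its log2 fold change was -3 (SE 0.11, limma adjusted p = 2.92e-11), at rank 72 from the lowest of all genes tested, and -1.85 with a pseudocount of 5. IMPDH2 went to 9.48, 11.6 and 13.5 FPKM, a log2 fold change of -2.05 (SE 0.14). PFAS reached 1.79, 1.72 and 1.25 FPKM, with -1.58 (SE 0.11). ADSL reached 2.91, 2.47 and 2.56 FPKM, with -1.31 (SE 0.11), and ATIC 35.3, 37.3 and 38.9 FPKM, with -1.28 (SE 0.09). With a pseudocount of 5 the log2 fold change was -0.83 for PFAS and -0.77 for ADSL. On the log2(FPKM + 1) scale the remaining 4 enzymes were close to each other: GART fell by 1.03, PPAT by 0.91, GMPS by 0.9 and IMPDH1 by 0.9. GART stood at 7.81, 7.24 and 7.79 FPKM and GMPS at 5.43, 5.49 and 5.53 FPKM. PPAT stood at 0.939, 0.977 and 1.06 FPKM, and its log2 fold change was -1.38 and -0.37 with pseudocounts of 0.1 and 5. With 0.1 ATIC had -1.299, so the place of PPAT among the enzymes depends on the pseudocount. IMPDH1 stood at 17.4, 19.6 and 18.9 FPKM, and its log2 fold change was -0.58 with equal totals. For all 9 enzymes the Osi_cIGF1R libraries lay below every DMSO_EV library, as they did for 36.5% of all genes tested.

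**Figure D2:**
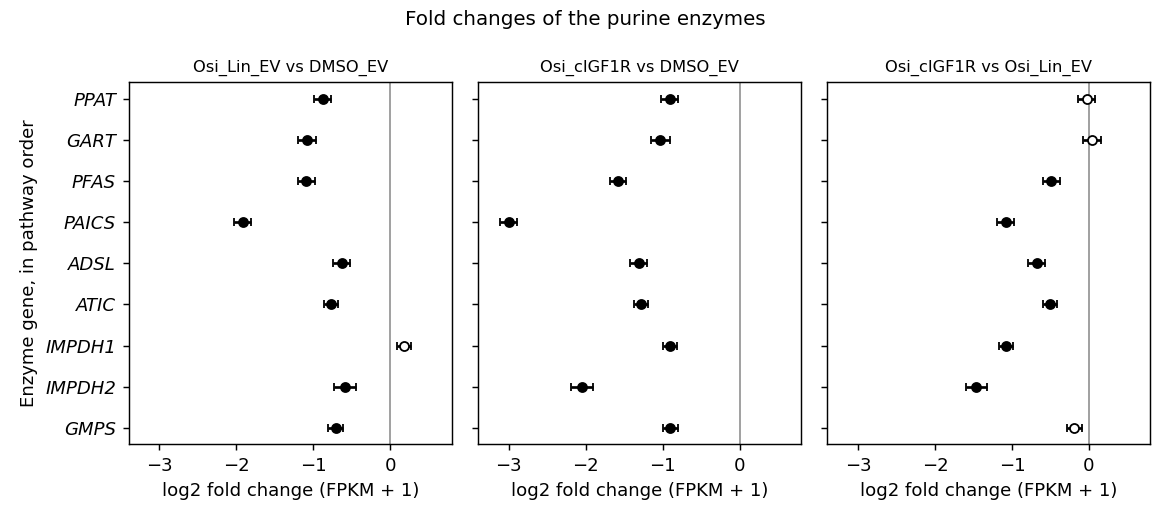
Log2 fold changes of FPKM + 1 for the 9 enzymes in the 3 comparisons, with bars of 1 standard error from limma. Filled points passed an adjusted p under 0.05, and open points did not. IMPDH1 is open at 0.18 in the first panel, all 9 are filled in the second, and PPAT, GART and GMPS are open in the third.

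The direct comparison of Osi_cIGF1R with Osi_Lin_EV divided the enzymes. PAICS, ADSL, PFAS, ATIC, IMPDH1 and IMPDH2 were lower in Osi_cIGF1R than in Osi_Lin_EV, 6 of 9, where 34.8% of all genes tested were called lower and 25.9% higher. PPAT, GART and GMPS did not pass. The median log2 fold change of the enzymes was -0.51, beside -0.09 for all genes. In this comparison 42.7% of all calls were higher ones as measured, 54.9% after median-of-ratios rescaling and 63.5% with equal totals. Equal totals also let more genes, 16408, past the minimum. Both scalings moved the median of all genes, to 0.03 and 0.12. Relative to that median the enzymes' median was -0.43 as measured, -0.42 and -0.5, and 6, 6 and 4 enzymes were called lower.

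On the log2(FPKM + 1) scale IMPDH2 had the deepest fall of the enzymes between the treated groups. Its log2 fold change was -1.46 (SE 0.14, limma adjusted p = 1.28e-06), at rank 134 from the lowest. IMPDH1 and PAICS both stood at -1.08 (SE 0.09 and 0.11), and these 3 enzymes were lower by at least 1, as were 4.38% of genes tested. ADSL was lower by a log2 fold change of -0.68 (SE 0.11). PFAS had -0.49 and ATIC -0.51. Both lost their call with equal totals, at -0.38 and -0.24 (limma adjusted p = 0.0559 and 0.0734). With a pseudocount of 5 the values were -0.5 for PAICS, -0.36 for ADSL and -0.21 for PFAS. With a pseudocount of 0.1 PAICS had -1.484, close to IMPDH2 at -1.527, and IMPDH1 had -1.115. The distance of PAICS from IMPDH2 thus depends on the pseudocount. For PPAT the difference between the treated groups was -0.03, with a 95% interval of -0.26 to 0.2, and for GART it was 0.04, with an interval of -0.22 to 0.3. Both groups overlapped for these genes, and the sign turned without 1 library, to 0.05 for PPAT without Osi_Lin_EV replicate 2 and to -0.03 for GART without Osi_Lin_EV replicate 3. GMPS had -0.19 (interval -0.4 to 0.02, limma adjusted p = 0.107), and its libraries did not overlap. With equal totals it stood at 0.055. GMPS and the 6 called enzymes, 7 of 9, had every Osi_cIGF1R library below every Osi_Lin_EV library, as did 38.4% of genes tested, and 29.6% lay above.

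Ratios inside a library do not change when the library is scaled by a constant. The ratio of IMPDH2 to IMPDH1 was 1.22, 1.44 and 1.64 in DMSO_EV, 0.887, 0.834 and 0.739 in Osi_Lin_EV and 0.544, 0.591 and 0.716 in Osi_cIGF1R. IMPDH2 was thus the more abundant isoform in every control library and the less abundant in every treated library. On the log2 scale the ratio differed by -0.8 between Osi_Lin_EV and DMSO_EV, by -1.21 between Osi_cIGF1R and DMSO_EV and by -0.42 between the treated groups. An exact two-sided permutation test gave p = 0.1 for each of the 3 pairs (0.1 also after adjustment over them), which is the smallest p that 3 against 3 allows.

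PAICS fell relative to PPAT, whose start lies 136 bases away, in every treated library. The ratio of PAICS to PPAT, looked at after the single values were seen, was 6.23, 6.6 and 6.83 in DMSO_EV, 3.38, 3.62 and 4.9 in Osi_Lin_EV and 1.31, 1.47 and 1.36 in Osi_cIGF1R. No groups overlapped, and the exact two-sided permutation p was 0.1 for each pair, again the smallest possible. RefSeq also has PAICS transcripts that start inside PPAT, so that the genes overlap from 56410507 to 56435615, and the use of strand in the counting is not stated.

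**Figure D3:**
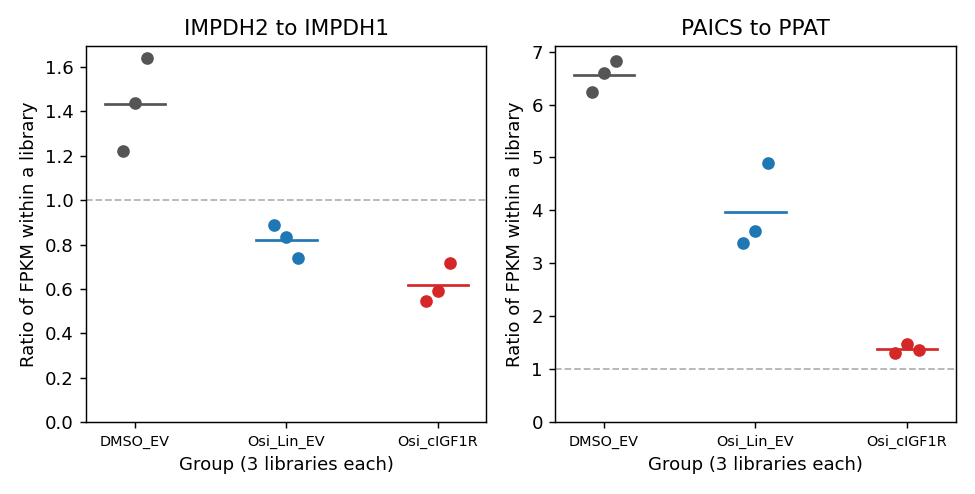
Ratio of FPKM within each library, with a point per library and a bar for the mean of the group, for IMPDH2 to IMPDH1 (left) and PAICS to PPAT (right). The dashed line marks equal levels. The IMPDH ratio lies above it in DMSO_EV (1.22 to 1.64) and below it in both treated groups, and the PAICS ratio falls from 6.23 to 6.83 to 1.31 to 1.47.

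As shares of the summed level of the 9 enzymes, PAICS went from 7.43% ± 0.453 in DMSO_EV to 2.62% ± 0.266 in Osi_Lin_EV and 1.57% ± 0.0714 in Osi_cIGF1R (n = 3, SD). IMPDH1 went from 14.8% ± 1.34 to 26.4% ± 1.09 and 21.4% ± 0.788. IMPDH2 kept its share in Osi_Lin_EV within the spread, at 21.6% ± 1.16 against 21% ± 1.31, and held 13.2% ± 1.68 in Osi_cIGF1R. GART took 6.92% ± 0.746 in DMSO_EV, 4.8% ± 0.285 in Osi_Lin_EV and 8.76% ± 0.645 in Osi_cIGF1R. ADSL held 3.38% ± 0.746, 3.15% ± 0.193 and 3.06% ± 0.417, which overlap.

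The genes whose profile over the 9 libraries came closest to that of PPAT were APEX2, a DNA repair nuclease, MRPL39, a protein of the mitochondrial ribosome, DPYSL2, SMOX, the spermine oxidase, and TRMT6, a subunit of a tRNA methyltransferase. Their root mean square distance on the centred log2(FPKM + 1) scale was 0.0891 to 0.0982, among 7695 genes with a mean of at least 5 FPKM. APEX2, for example, stood at 8.38 ± 0.574, 4.09 ± 0.265 and 4.15 ± 0.236 FPKM in the 3 groups in the order above (SD, n = 3). PPAT had means of 2.73, 1.04 and 0.992 FPKM, near the pseudocount of 1, which shrinks its changes more than those of these genes. SMOX had means of 23.1, 13.3 and 12.6 FPKM, a smaller fall in ratio than that of PPAT. Nearness to PPAT, also of other enzymes, therefore holds on this scale and need not hold for ratios of FPKM. Among the enzymes GMPS (0.138) and GART (0.143) were nearest to PPAT and PAICS was farthest (0.857). Closest to IMPDH2 were AHCY, which clears S-adenosylhomocysteine, the tubulin TUBB6, the chaperonin subunit CCT3, RPSA, a protein of the small ribosomal subunit, and the import receptor IPO5, at 0.108 to 0.154. AHCY stood at 72.5 ± 9.9, 42.7 ± 4.52 and 16.3 ± 0.687 FPKM. The enzyme nearest to IMPDH2 was ATIC, at 0.422.

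In the AMP branch both adenylosuccinate synthetase genes rose in Osi_cIGF1R against DMSO_EV, where 33.1% of all genes tested were higher. ADSL, which acts after them, fell. ADSS2, the adenylosuccinate synthetase found in most tissues, stood at 28.5 ± 5.33 FPKM in DMSO_EV, fell to 17.9 ± 1.81 in Osi_Lin_EV and rose to 58.1 ± 5.62 in Osi_cIGF1R (n = 3, SD; log2 fold changes of -0.64 and 1.01, limma adjusted p = 0.00104 and 1.1e-05). Between the treated groups it was higher by 1.65 in Osi_cIGF1R (limma adjusted p = 2.3e-07), the opposite direction to the 6 called enzymes. ADSS1, the muscle form, was low, at 0.474 ± 0.154 FPKM in DMSO_EV, 1.66 ± 0.242 in Osi_Lin_EV and 0.994 ± 0.246 in Osi_cIGF1R, and rose in both treated groups.

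Upstream of the pathway, 11 genes of PRPP supply and the pentose phosphate route were tested. In Osi_Lin_EV 3 rose and 2 fell, beside 29% and 23.5% of all genes, and in Osi_cIGF1R 1 rose and 4 fell, beside 33.1% and 35.8%. Except for the 1 of 11 that rose, these shares are near those of all genes. Over the other scalings 3 to 6 rose in Osi_Lin_EV, and 1 to 4 rose and 0 to 4 fell in Osi_cIGF1R. Without Osi_cIGF1R replicate 3, 5 rose in Osi_Lin_EV, and without DMSO_EV replicate 2, 2 fell in Osi_cIGF1R. The transketolase TKT rose from 294 ± 27 to 438 ± 27.1 FPKM in Osi_Lin_EV (SD, n = 3; limma adjusted p = 0.000516). It was lower in Osi_cIGF1R than in Osi_Lin_EV, at 232 ± 11.4 FPKM. PRPS2, a PRPP synthetase, fell from 14.2 ± 1.77 to 7.29 ± 0.363 FPKM in Osi_Lin_EV. In Osi_cIGF1R it stood at 10.2 ± 0.509 (limma adjusted p = 0.0015, and 0.376 with equal totals).

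Folate one-carbon enzymes, which supply the formyl groups, fell in 7 and rose in 2 of 10 cases in Osi_Lin_EV. In Osi_cIGF1R they fell in 8 and rose in 1. Of all genes 23.5% fell and 29% rose in Osi_Lin_EV, and 35.8% fell and 33.1% rose in Osi_cIGF1R. MTHFD1, the cytosolic enzyme that makes formyl folate, went from 33 ± 3.75 FPKM in DMSO_EV to 9.01 ± 0.844 in Osi_Lin_EV and 6.86 ± 0.644 in Osi_cIGF1R (n = 3, SD; log2 fold changes of -1.76 and -2.11). Its mitochondrial relative MTHFD1L went from 10.1 ± 1.4 to 3.37 ± 0.195 and 2.48 ± 0.592. The serine hydroxymethyltransferase SHMT2 went from 60.7 ± 6.85 to 36.7 ± 3.46 and 26.6 ± 0.409. Between the treated groups 6 of the 10 were lower in Osi_cIGF1R and 1 higher, beside 34.8% and 25.9% of all genes as measured. Only 2 were lower after median-of-ratios rescaling and 1 with equal totals. Without Osi_Lin_EV replicate 2, without Osi_cIGF1R replicate 2, or without DMSO_EV replicate 2 and Osi_cIGF1R replicate 1 together, 3 were lower.

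Suppliers of glutamine and aspartate fell in 4 and rose in 1 of 6 cases against DMSO_EV in both treated groups. The same shares of all genes were the background, 23.5% and 35.8% for the falls and 29% and 33.1% for the rises. The glutamine transporter SLC1A5 stood at 58.7 ± 4.11 FPKM in DMSO_EV, 27.4 ± 2.01 in Osi_Lin_EV and 26.1 ± 1.3 in Osi_cIGF1R (n = 3, SD). The aspartate aminotransferase GOT1 stood at 15.8 ± 1.33, 8.25 ± 0.584 and 5.29 ± 0.462. Pyrimidine synthesis likewise fell in 4 of 6 cases in each treated group, beside those shares, and 1 rose in Osi_cIGF1R. CTPS1, which makes CTP, went from 27.5 ± 2.57 to 8.8 ± 0.333 and 4.12 ± 0.196 FPKM. CAD, the first enzyme of that route, went from 8.98 ± 0.978 to 5.29 ± 0.357 and 1.8 ± 0.386.

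Salvage recovers purine bases and nucleosides. Of its 9 genes 6 fell (4 to 7 over the other scalings) and 1 rose in Osi_Lin_EV, and 7 fell and 1 rose in Osi_cIGF1R. The shares of all genes were 23.5% and then 35.8% for falls, and 29% and then 33.1% for rises. The gene that rose, the nucleoside transporter SLC29A1, lost its call in both comparisons without DMSO_EV replicate 1, and in the first also without Osi_Lin_EV replicate 1 or 2. HPRT1, which returns hypoxanthine and guanine to nucleotides, stood at 21.5 ± 2.22 FPKM in DMSO_EV, 7.33 ± 0.163 in Osi_Lin_EV and 3.69 ± 0.842 in Osi_cIGF1R (n = 3, SD; log2 fold changes of -1.43 and -2.27, limma adjusted p = 7.47e-07 and 2.7e-09). PNP, which splits purine nucleosides, went from 32.7 ± 2.56 to 8.22 ± 0.652 in Osi_Lin_EV and 15.7 ± 1.57 in Osi_cIGF1R. It was thus higher by 0.86 in Osi_cIGF1R than in Osi_Lin_EV (limma adjusted p = 9.27e-06). APRT, the adenine salvage enzyme, went from 126 ± 9.94 to 92 ± 9.32 and 53 ± 8.85. Its fall in Osi_Lin_EV (limma adjusted p = 0.0083) had an adjusted p of 0.0515 without DMSO_EV replicate 2 and Osi_cIGF1R replicate 1 together.

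Of 14 enzymes that break down or interconvert purine nucleotides, 6 rose and 6 fell in Osi_cIGF1R, near the shares of all genes (33.1% higher and 35.8% lower). In Osi_Lin_EV 2 rose and 7 fell, beside 29% and 23.5% of all genes. The number that fell was 4 with equal totals, with no filter, without Osi_Lin_EV replicate 1 and without Osi_Lin_EV replicate 3. It was also 4 without DMSO_EV replicate 2 and Osi_cIGF1R replicate 1 together. Of the 2 that rose, GMPR reached the minimum only in Osi_cIGF1R and so was not tested when any of those libraries was left out. GMPR, which turns GMP back into IMP, stood at 0.0909 ± 0.0905 FPKM in DMSO_EV, 0.415 ± 0.0394 in Osi_Lin_EV and 28.9 ± 3.74 in Osi_cIGF1R (n = 3, SD). Its log2 fold change in Osi_cIGF1R against DMSO_EV was 4.77. GMPR passed the filter only through Osi_cIGF1R, so its call among the 6 that rose there follows in part from the filter. Its control level lies far below the pseudocount of 1, and this value ran from 2.73 to 7.36 over the alternatives. SAMHD1, a hydrolase of deoxynucleotides and an antiviral factor, stood at 2.34 ± 0.303, 2.71 ± 0.404 and 59.1 ± 2.03 FPKM. The nucleotidase NT5C3A stood at 6.42 ± 1.28, 6.27 ± 0.414 and 121 ± 14.8. GDA, the guanine deaminase, went from 5.82 ± 0.781 to 0.968 ± 0.0477 FPKM in Osi_Lin_EV. GMPR mRNA thus rose in Osi_cIGF1R where the mRNAs of IMPDH1, IMPDH2 and GMPS fell.

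Of 11 purine nucleotide kinases 4 fell and 1 rose in Osi_Lin_EV, and 6 fell and 1 rose in Osi_cIGF1R. Among all genes 23.5% and then 35.8% fell, and 29% and then 33.1% rose. Over the other scalings 1 to 3 rose in Osi_Lin_EV and 2 to 4 in Osi_cIGF1R, and 0 rose in Osi_cIGF1R without Osi_cIGF1R replicate 2 or 3 or any one Osi_Lin_EV library. NME1, a nucleoside diphosphate kinase, stood at 110 ± 7.62 FPKM in DMSO_EV, 18.6 ± 1.28 in Osi_Lin_EV and 7.14 ± 1.72 in Osi_cIGF1R (n = 3, SD; log2 fold changes of -2.5 and -3.79). NME2, its close copy and neighbour, stood at 636 ± 47.4, 399 ± 27.6 and 182 ± 32.2 FPKM, and how reads were divided between the pair is not stated. NME3 rose in Osi_Lin_EV, from 33.5 ± 5.07 to 78.3 ± 2.02 FPKM.

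**Figure D4:**
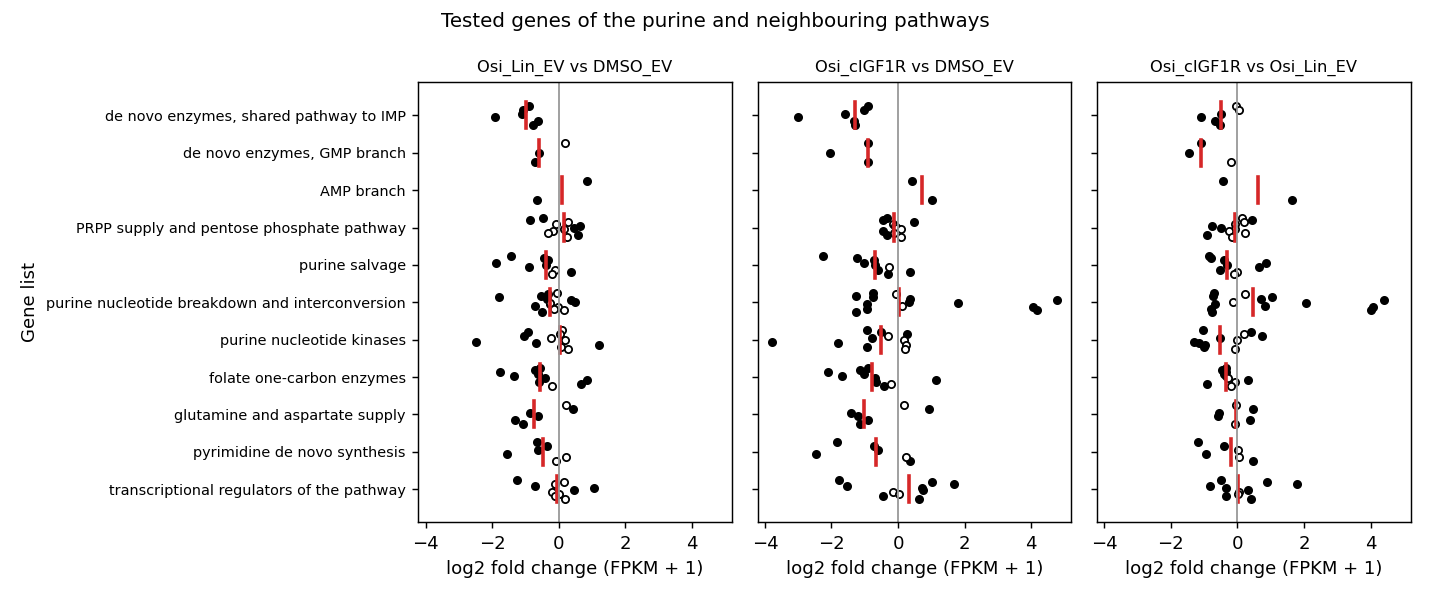
Log2 fold changes of FPKM + 1 for every tested gene of the 2 enzyme groups and of 9 neighbouring lists, with filled points for genes that passed an adjusted p under 0.05, open points for the rest and a red bar at the median of the list. The shared pathway to IMP lies below 0 against DMSO_EV in both treated groups (-1.92 to -0.63 and -3 to -0.91), and the breakdown list reaches 4.77 in Osi_cIGF1R (GMPR, 2.73 to 7.36 over the alternatives).

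MYC stood at 25.4 ± 1.76 FPKM in DMSO_EV, 9.97 ± 0.345 in Osi_Lin_EV and 6.74 ± 0.209 in Osi_cIGF1R (n = 3, SD; log2 fold changes of -1.26 and -1.77, limma adjusted p = 5.75e-08 and 7.26e-10). Of the 10 regulators tested, 2 rose and 2 fell in Osi_Lin_EV, and 5 rose and 3 fell in Osi_cIGF1R. All genes had 29% and 23.5%, then 33.1% and 35.8%, and only the share that rose in Osi_cIGF1R was above them. MXD1, a partner of MAX that opposes MYC, stood at 7.57 ± 0.735 FPKM in DMSO_EV and 26.3 ± 3.03 in Osi_cIGF1R, and MXD4, another one, at 8.86 ± 0.68 and 19.5 ± 1.37 in DMSO_EV and Osi_Lin_EV. MXD3 fell, from 17.6 ± 2.38 to 10.3 ± 0.645 and 5.45 ± 0.472 FPKM. Their part in the enzymes' levels was not tested. MYCN was not analysed here.

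Proliferation markers (MKI67, TOP2A, CDK1, CCNB1, PCNA, MCM2, BUB1 and PLK1) moved with the enzymes against the control. All 8 fell in both treated groups, beside 23.5% of all genes in Osi_Lin_EV and 35.8% in Osi_cIGF1R. Their sum was 327 to 376 FPKM in DMSO_EV, 27.3 to 30.8 in Osi_Lin_EV and 34.3 to 43.6 in Osi_cIGF1R, and none was at 0. Between the treated groups 6 of the 8 were higher in Osi_cIGF1R, beside 25.9% of all genes, and 0 were lower. This number was 3 without Osi_Lin_EV replicate 1, 3 without Osi_Lin_EV replicate 3, 3 with no filter on low values and 2 with a pseudocount of 5. The part of proliferation in the enzymes' levels was not tested.

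Reads could be shared with other loci for some members. RefSeq lists 11 pseudogenes of IMPDH1, 7 of PAICS, 2 of PPAT and 1 of GMPS, and of those in the table GMPSP1 had the highest level, up to 2.34 FPKM. ATIC (chromosome 2 from 215312059 to 215368592) overlaps FN1, the fibronectin gene, which stood at 816 ± 221 FPKM in DMSO_EV and 2640 ± 666 in Osi_cIGF1R (n = 3, SD), a direction opposite to that of ATIC. ADSL (chromosome 22 from 40346500 to 40387527) overlaps SGSM3, at 13 ± 1.77 and 25.7 ± 1.85 FPKM. PFAS (chromosome 17 from 8247608 to 8270486) overlaps CTC1, which spans 8224815 to 8248056. Without a stated use of strand, reads from such overlaps cannot be told apart. GART lies on chromosome 21 from 33503931 to 33542893, IMPDH1 on chromosome 7 from 128392277 to 128409982, IMPDH2 on chromosome 3 from 49024325 to 49029398 and GMPS on chromosome 3 from 155869430 to 155944020.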

How the data were processed

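The deposited table held fractional values per gene for 9 RNA-seq libraries; the authors did not name the unit, and differing totals without steps of whole reads point to FPKM, so depth is unknown. Bowtie2 2.1.0, STAR, edgeR and hg38 are named in the submitters' processing notes, with no role; counter, annotation and strand use: not given in the sources used here. A protocol with RNase R, shared by all 21 samples, gives 3 days of treatment, unlike the 8 days of the RNA-seq labels. The other 12 samples, of circular RNA, were not analysed here.

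log2(FPKM + 1) of 13775 genes (at least 1 FPKM in at least 3 libraries) was fitted in limma 3.58.1 (R 4.3.3; group model, trend, robust variance) over 9 libraries, with Benjamini-Hochberg adjustment over all genes. Alternatives covered scaling, pseudocount, filter, limma's options, a replicate block and leaving out libraries. Ratios were tested by exact permutation. Tested on simulated data over 13775 genes, limma recovered 96, 97 and 99 of 100 changes of 1 (log2) in the 3 comparisons in the order of the report, with 11, 9 and 13 false calls. The simulation changed only 100 genes by 1 and 100 by 2, far fewer than were called in the data. Its rates therefore need not hold for the data. Members and lists were chosen with earlier results of these data known. Named genes are the members, up to 3 called genes per list and comparison with the largest change and a group mean of at least 5 FPKM, and the 5 genes nearest to PPAT and to IMPDH2; genes outside that rule (ADSS1, SLC29A1, GMPSP1, FN1, SGSM3, CTC1, RN7SL1) were named after their values were seen. Sequences are RefSeq's, build GRCh38.p14. Python 3.11.15 with matplotlib 3.10.9 drew the figures. A gene that the rule names is not reported here.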

Additional observations from a re-analysis of the deposited data

How the results depend on the processing

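The purine enzymes called in each comparison (8, 9 and 6 lower) stayed within 1.5 times of these numbers under every alternative run but 1: requiring an absolute log2 fold change of 1 left 3 of 8 in Osi_Lin_EV against DMSO_EV and 3 of 6 between the treated groups. With equal totals 4 in place of 6 were lower between the treated groups, and with equal totals without mitochondrial genes 1 enzyme, IMPDH1, was higher in Osi_Lin_EV. Leaving out each library in turn, or DMSO_EV replicate 2 and Osi_cIGF1R replicate 1 together (added after seeing the data), kept the numbers at 8, 9 and 6. So did the fit with a replicate block. Deviations of same-numbered libraries had correlations of -0.315 to 0.036 over 9 pairs, and those of other pairs -0.155 to 0.329 over 18. With 3 libraries a group these values cannot decide whether the numbers pair the libraries.

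Over all genes, the threshold of 1 left 763 lower and 503 higher in Osi_Lin_EV against DMSO_EV, 1571 and 1433 in Osi_cIGF1R against DMSO_EV, and 603 and 907 between the treated groups. A minimum of 5 FPKM, which tests fewer genes and drops PPAT, gave 3238 lower of 4936 and 3148 lower of 4788 in the last 2 comparisons. Equal totals gave 7142 higher (4563 as measured) in Osi_cIGF1R against DMSO_EV, and 5551 higher (3568) and 3186 lower (4788) between the treated groups; the cause was not tested.

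Of 591 alternative fold changes of single enzymes 6 turned, all uncalled differences between the treated groups: PPAT at 0.042 (median-of-ratios), 0.163 (equal totals), 0.079 (quantile normalization) and 0.05 (without Osi_Lin_EV replicate 2), GART at -0.028 without Osi_Lin_EV replicate 3, and GMPS at 0.055 with equal totals. All 21 alternatives of the IMPDH ratio stayed within 1 SD. Over the libraries left out in turn this difference ran from -0.134 to 0.05 for PPAT and from -0.028 to 0.109 for GART. Of 2070 counts for related and marker lists 210 moved by over 1.5 times. Precision is limited by 3 libraries a group and unknown depth.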
